A study of Mus musculus with 8 samples.

Results

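Transcripts of 10 Sox genes (Sox2, Sox4, Sox6, Sox7, Sox9, Sox11, Sox13, Sox17, Sox18 and Sox21) were followed across mouse lung adenocarcinoma cell lines sequenced as 8 RNA libraries in 4 groups of 2. The genes were taken by symbol from a deposited table of 23224 genes, and all 10 were listed. Tmet lines came from a primary lung tumour that had spread, and no shRNA is named for them. The other 3 groups were Tnonmet lines, from a primary tumour that had not spread. They carried shRNAs against Nkx2-1, Foxa2 and Cdx2 together (shNkx2-1/Foxa2/Cdx2, called the triple knockdown below), an shRNA against Nkx2-1 (shNkx2-1), or a luciferase shRNA (shControl). All groups share the labelled genotype KrasG12/+;Trp53-/- and growth in DMEM with 10% serum, and the shRNAs were carried by retroviruses and lentiviruses. How many lines or clones stand behind a group is not labelled, nor is it labelled that the 2 libraries of a group came from separate cultures. The p-values therefore cover only how far 2 libraries of a group differ, and that spread may be technical. It was pooled over the 4 groups, so the Tmet duplicates also weigh on contrasts without Tmet. Tumour of origin and the presence of an shRNA vector cannot be told apart between Tmet and the other groups.

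Sox proteins are transcription factors that bind DNA through a high-mobility-group (HMG) box, which inserts into the minor groove and bends the helix. They act with partner factors and are sorted into subgroups, members of which share much of the box and often stand in for each other. In the lung, Sox2 marks the proximal airway and Sox9 the distal tip progenitors, while SoxF genes belong to endothelium. Sox2 with Sox21 are SoxB genes, Sox4 with Sox11 SoxC, Sox6 with Sox13 SoxD, Sox9 SoxE, and Sox7 with Sox17 and Sox18 SoxF.

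The DNA that codes for the start of the HMG box shows how the 10 genes group, and whether 45-nt reads could separate them. Each line gives 60 bases of the GENCODE coding strand, 5′ to 3′, with bases equal to those of Sox2 at the same position in capitals.
Sox2: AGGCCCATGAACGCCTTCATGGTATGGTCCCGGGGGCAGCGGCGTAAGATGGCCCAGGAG
Sox21: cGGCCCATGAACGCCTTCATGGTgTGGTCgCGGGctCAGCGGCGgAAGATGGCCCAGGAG
Sox4: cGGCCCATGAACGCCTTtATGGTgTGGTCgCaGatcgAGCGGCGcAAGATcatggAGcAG
Sox11: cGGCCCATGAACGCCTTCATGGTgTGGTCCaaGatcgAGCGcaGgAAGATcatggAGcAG
Sox6: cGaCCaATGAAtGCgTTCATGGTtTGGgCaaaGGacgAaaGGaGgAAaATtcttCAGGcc
Sox13: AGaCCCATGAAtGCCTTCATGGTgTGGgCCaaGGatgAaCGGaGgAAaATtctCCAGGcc
Sox9: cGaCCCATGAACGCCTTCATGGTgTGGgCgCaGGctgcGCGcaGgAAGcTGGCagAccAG
Sox7: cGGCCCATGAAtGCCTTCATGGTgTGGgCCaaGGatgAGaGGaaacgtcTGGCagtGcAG
Sox17: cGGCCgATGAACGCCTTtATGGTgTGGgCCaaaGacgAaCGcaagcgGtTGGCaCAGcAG
Sox18: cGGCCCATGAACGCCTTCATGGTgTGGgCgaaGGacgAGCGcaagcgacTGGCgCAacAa
Over the whole coding sequence of the box, Sox2 and Sox21 shared 87.8% of their bases, Sox4 and Sox11 88.6%, Sox6 and Sox13 81.4%, and Sox17 and Sox18 81.4%. The lowest pair was Sox6 with Sox18 at 53.2%. Sox4 and Sox11 shared 4 stretches of 45 bases in their annotated transcripts, and no other pair of the 10 genes shared any. Reads of subgroup partners could therefore be told apart over nearly all of each transcript.

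**Figure D1:**
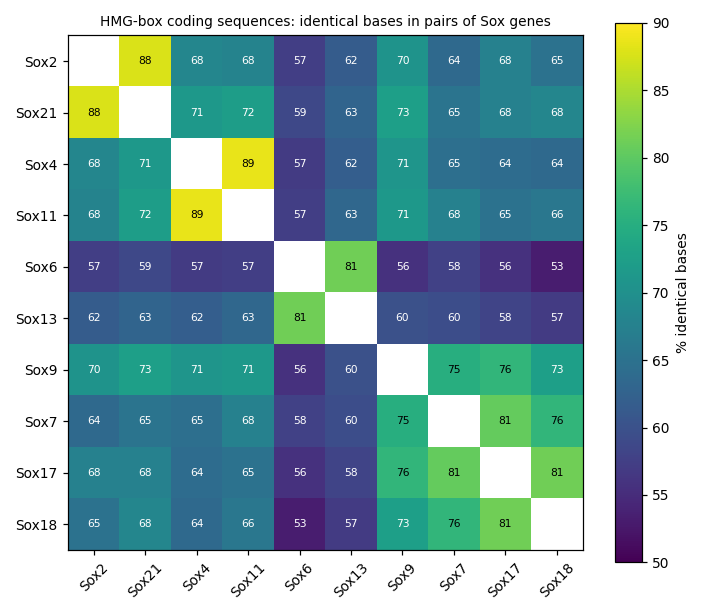
Percentage of identical bases between the HMG-box coding sequences of each pair of the 10 Sox genes, from dark (low) to yellow (high). The brightest cells are Sox4 with Sox11 and Sox2 with Sox21, at 88.6% and 87.8%.

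Overlap with other genes was the larger source of uncertainty. Sox4 shared 54.2% of its 45-base stretches with other genes, and 2572 of those 2576 stretches were shared with Gm26735, a long non-coding RNA gene on the opposite strand. Sox21 shared 17.9% with Gm4675 and Sox17 15.2% with Gm37587, both also on the opposite strand. These shares, like the exon lengths used for levels per kilobase, come from an annotation on GRCm38, another build than the mm9 named for the counts. No source used here gives the strand setting of the counting, so reads of these partners cannot be told apart from those of Sox4, Sox21 and Sox17. Sox2, which lies within Sox2ot on the same strand, shared no exon base with it.

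Levels are given as CPM, the share of a library's counts scaled to a fixed total and adjusted by TMM, an edgeR method for library composition. Libraries held 14496995 to 21044835 estimated counts, and 3 counts, taken as the detection floor of a library, equalled 0.151 to 0.200 CPM. A gene was called where edgeR's quasi-likelihood test gave an adjusted p under 0.05 over all 13318 genes tested. Of the 10 Sox genes, 7 passed the filter on low counts; Sox7, Sox17 and Sox18 did not. Nkx2-1 averaged 0.286 CPM in Tmet, 36.1 in the triple knockdown, 41.3 in shNkx2-1 and 72.2 in shControl, Foxa2 averaged 1.28, 31.2, 45.4 and 56.0 CPM in the same order, and Cdx2 averaged 0.368, 8.10, 181 and 105 CPM. The targeted genes were thus lower than in shControl in each group named for them. The Tmet duplicates differed from each other more than other duplicates did, with a chi-square of 64.0 per gene in Tmet against 8.81 to 13.5 elsewhere, so the values below are also given with 1 Tmet library left out where a call rests on it.

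Fibroblast and epithelial markers moved with Tmet. The 8 fibroblast markers summed to 264 and 820 CPM in Tmet, 20.1 and 20.3 in the triple knockdown, 9.54 and 7.61 in shNkx2-1, and 5.33 and 5.47 in shControl. Of them, 6, 4, 4 and 4 exceeded the floor in those groups, with Col1a1 and Col1a2 carrying most of the Tmet sum, Lum at 0 counts in every library and Thy1 at 0 to 2. The 8 epithelial markers summed to 2624 and 1437 CPM in Tmet, 9209 and 10217 in the triple knockdown, 7329 and 6816 in shNkx2-1, and 8226 and 7954 in shControl. Cdh1, the epithelial cadherin, stood at 3.17 and 3.33 CPM in Tmet against 946 and 1005 CPM in shControl, and Epcam held 0 to 12 counts in any library. Sftpc, which defines alveolar type 2 cells, held at most 4 counts. The list of 9 alveolar type 2 markers includes the targeted Nkx2-1. It summed to 85.0 and 59.1 CPM in Tmet, 208 and 206 in the triple knockdown, 272 and 280 in shNkx2-1, and 334 and 312 in shControl. Abca3 carried most of each sum, at 84.4 and 58.3 CPM in Tmet and 256 and 243 in shControl. Neural and glial markers summed to 5.03 and 3.58 CPM in Tmet, 2.83 and 2.50 in the triple knockdown, 4.62 and 4.28 in shNkx2-1, and 3.27 and 3.51 in shControl. Leukocyte markers summed to 3.01 and 4.54 CPM in Tmet, 3.44 and 4.17 in the triple knockdown, 1.76 and 1.41 in shNkx2-1, and 1.53 and 1.96 in shControl, so neither list set Tmet apart from every other group. The part of all these markers in the Sox results was not tested, and in bulk RNA fewer cells of a type and less RNA per cell cannot be told apart.

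Tmet carried Sox2 and Sox11, which were near the counting floor in every Tnonmet library, together with higher Sox21 and Sox13. Sox13 was also higher in the triple knockdown, where Sox6 was lower. Sox9 was lower in Tmet than in the triple knockdown and shControl. The calls of lower Sox6 against shControl and shNkx2-1, and of lower Sox9 against shControl, were lost in some alternative fits. Sox4, whose counts may include reads of Gm26735, was abundant in all 4 groups, and no SoxF gene reached a level that could be tested.

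**Figure D2:**
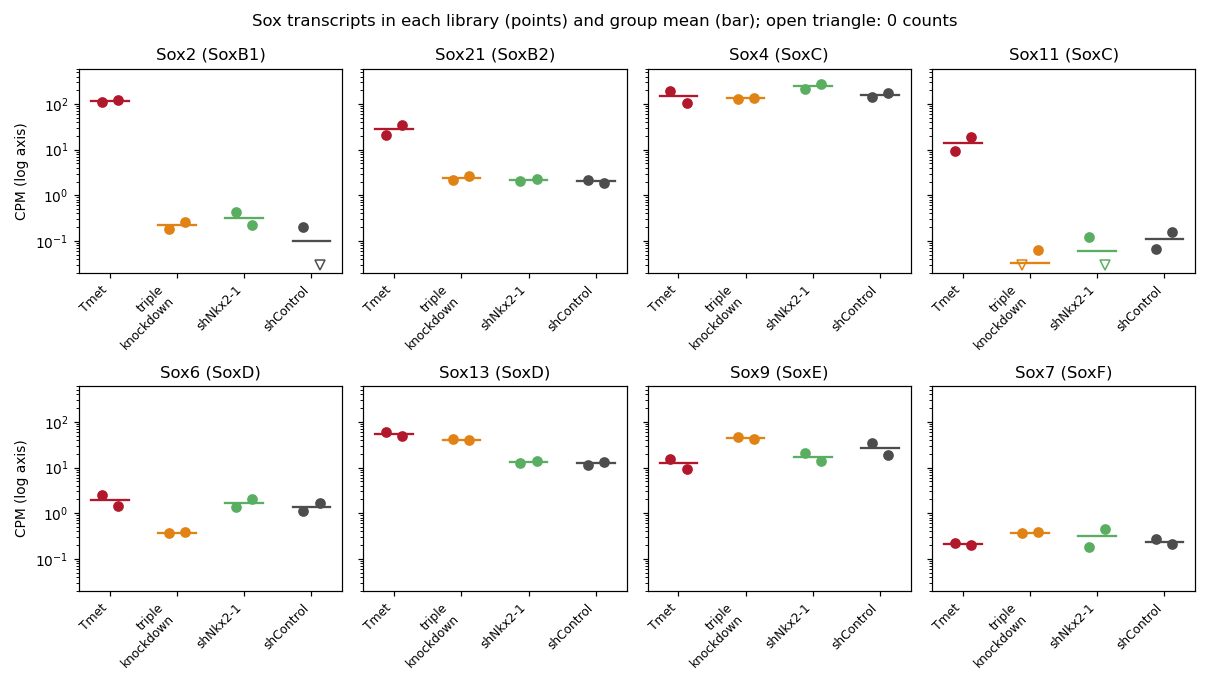
CPM (log axis) of 8 Sox genes in each library, with Tmet, triple knockdown, shNkx2-1 and shControl from left to right; points are libraries, bars are means of 2, and open triangles mark 0 counts. Sox2, Sox21 and Sox11 stand highest in both Tmet libraries, and Sox13 is high in both Tmet and triple knockdown libraries.

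Sox2, a SoxB1 factor that holds stem and airway progenitor states, showed the largest difference of the 10 genes. It stood at 109 and 121 CPM in Tmet, 0.181 and 0.256 in the triple knockdown, 0.425 and 0.225 in shNkx2-1, and 0.200 and 0 in shControl. Those values rest on 4407, 7, 11 and 3 counts, so the 6 Tnonmet libraries were at or near the floor and both Tmet libraries far above it. The ratio of Tmet to shControl was 1324, with a 95% counting interval of 453 to 6423 that covers counting error only. In edgeR's fit Sox2 rose in Tmet by 10.25 ± 0.43 (log2 change ± SE) against shControl (adjusted p = 1.17e-06), 9.0 ± 0.39 against the triple knockdown (adjusted p = 1.95e-06) and 8.45 ± 0.37 against shNkx2-1 (adjusted p = 1.36e-06). Those 3 calls held in all 15 alternatives, but the fitted change against shControl rests on which shControl library is kept. It was 13.98 without shControl replicate 1, which leaves a library with 0 counts, and 9.10 without replicate 2. Among the Tnonmet groups no Sox2 difference was called, and at 3 to 11 counts a group the ratio of shNkx2-1 to shControl, 3.68, had a counting interval of 0.973 to 20.6.

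Sox2ot, the non-coding gene in whose intron Sox2 lies, was higher in Tmet too, at a far lower level. It had 2.84 and 3.12 CPM in Tmet, 0.422 and 0.449 in the triple knockdown, 0.668 and 0.563 in shNkx2-1, and 0.467 and 0.103 in shControl. Both Tmet libraries exceeded every other library. The log2 change in Tmet against shControl was 3.44 ± 0.54 (edgeR adjusted p = 0.00103). Sox2ot passed the filter only through its Tmet libraries, so being tested at all went with high Tmet counts.

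Sox21, a SoxB2 factor that counters Sox2 at shared targets in neural and airway progenitors, was present at a low level throughout and rose in Tmet. It stood at 20.7 and 35.5 CPM in Tmet, 2.11 and 2.69 in the triple knockdown, 2.07 and 2.31 in shNkx2-1, and 2.20 and 1.86 in shControl. The Tnonmet groups overlapped one another and Tmet lay apart. The log2 change in Tmet was 3.80 ± 0.32 against shControl, 3.55 ± 0.31 against the triple knockdown and 3.68 ± 0.32 against shNkx2-1 (edgeR adjusted p = 3.84e-05, 7.51e-05 and 4.29e-05). Changes among the Tnonmet groups lay between 0.12 and 0.25 on the log2 scale, each below its SE. Sox21 counts may include reads of Gm4675, with which 17.9% of its 45-base stretches were shared.

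Sox11, a SoxC factor of neural and mesenchymal precursors that is silent in most adult tissues, resembled Sox2. It had 9.40 and 19.0 CPM in Tmet, 0 and 0.064 in the triple knockdown, 0.122 and 0 in shNkx2-1, and 0.067 and 0.155 in shControl, from 548, 1, 2 and 4 counts. The 2 Tmet libraries differed from each other, yet both lay above every Tnonmet library. The ratio of Tmet to shControl was 123, with a counting interval of 48.0 to 455, and the fitted log2 change was 6.85 ± 0.70 (edgeR adjusted p = 1.08e-04). Against the triple knockdown and shNkx2-1 the fitted changes were 8.53 ± 0.83 and 7.75 ± 0.76 (adjusted p = 1.25e-04 and 9.11e-05), and all 3 calls held in all 15 alternatives. The size did not hold as well: without Tmet replicate 2 the changes were 6.25 against shControl, 7.93 against the triple knockdown and 7.16 against shNkx2-1, and without shControl replicate 2 the change was 7.56. Leaving out triple knockdown replicate 1 or 2 gave 7.63 or 10.96 against that group, and leaving out shNkx2-1 replicate 1 or 2 gave 10.94 or 6.77. Both values above 10 set Tmet against a single library with 0 counts.

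Sox4, the other SoxC factor and one widely expressed in carcinomas, behaved differently from Sox11. It stood at 198 and 103 CPM in Tmet, 131 and 136 in the triple knockdown, 213 and 273 in shNkx2-1, and 146 and 174 in shControl. The shNkx2-1 libraries were the highest, and the Tmet duplicates spanned all libraries of the triple knockdown and shControl. No Sox4 difference was called: the log2 change was 0.61 ± 0.27 in shNkx2-1 against shControl (edgeR adjusted p = 0.289), -0.87 ± 0.28 in the triple knockdown against shNkx2-1 (adjusted p = 0.0622), and -0.69 ± 0.27 in Tmet against shNkx2-1 (adjusted p = 0.0596). With only the libraries compared, the first had an adjusted p of 0.0249. The second had 0.0107 with DESeq2, 0.0219 with no filter on low counts and 0.0012 with only the libraries compared, and the third had 0.027 with DESeq2 and 0.0245 with no filter. The first also passed the threshold without Tmet replicate 1 (adjusted p = 0.0156) or 2 (0.0154), with the same change of 0.60, as did the second (adjusted p = 8.70e-04 and 8.54e-04). Against shControl the Tmet change was -0.09 ± 0.27 and depended on which Tmet library was kept: it was -0.63 without Tmet replicate 1 (adjusted p = 0.00709) and 0.30 without replicate 2 (adjusted p = 0.120). Without Tmet replicate 1 the change against shNkx2-1 was -1.24 (adjusted p = 1.58e-04). Against the triple knockdown the Tmet change was 0.17 (adjusted p = 0.631), and 0.57 without Tmet replicate 2 (adjusted p = 0.0131).

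Sox13, a SoxD factor that lacks a transactivation domain and binds TCF1 in mice, was the member that rose in both Tmet and the triple knockdown. It stood at 61.4 and 49.0 CPM in Tmet, 41.7 and 40.7 in the triple knockdown, 12.8 and 13.8 in shNkx2-1, and 11.7 and 13.3 in shControl. The triple knockdown and Tmet libraries all exceeded the 4 libraries of shNkx2-1 and shControl. Against shControl the log2 change was 2.14 ± 0.16 in Tmet (edgeR adjusted p = 1.92e-05), 1.72 ± 0.16 in the triple knockdown (adjusted p = 2.77e-04) and 0.09 ± 0.16 in shNkx2-1 (adjusted p = 0.825). Adding the Foxa2 and Cdx2 shRNAs to that against Nkx2-1 went with a rise of 1.63 ± 0.16 (adjusted p = 4.45e-04). These called changes held in all 15 alternatives. The difference between Tmet and the triple knockdown, 0.42 ± 0.15 (adjusted p = 0.0459), held in 4 of 15 and lost its call without any 1 library of the 7 other than Tmet replicate 2 (adjusted p = 0.0828 to 0.193). It was also lost with DESeq2 (0.0555), with no filter on low counts (0.0726) and with only the libraries compared (0.128), and it was 0.25 without Tmet replicate 1.

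Sox6, the other SoxD factor and a partner of Sox9 in cartilage, went the other way in the triple knockdown at low counts. It had 2.52 and 1.46 CPM in Tmet, 0.362 and 0.385 in the triple knockdown, 1.34 and 2.08 in shNkx2-1, and 1.13 and 1.65 in shControl, where the triple knockdown value rests on 6 counts a library. Both triple knockdown libraries were below all 6 others. The log2 change in the triple knockdown was -1.89 ± 0.51 against shControl (edgeR adjusted p = 0.0298) and -2.18 ± 0.50 against shNkx2-1 (adjusted p = 0.0188). The first lost its call without either shControl library (adjusted p = 0.0768 without replicate 1, 0.171 without replicate 2) or either triple knockdown library (0.162 and 0.143) and with DESeq2 (0.0519), and the second without shNkx2-1 replicate 2 (0.137) or either triple knockdown library (0.128 and 0.118). Sox6 was 2.39 ± 0.49 higher on the log2 scale in Tmet than in the triple knockdown (adjusted p = 0.0052), a call that held in all 14 alternatives that could test it.

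**Figure D3:**
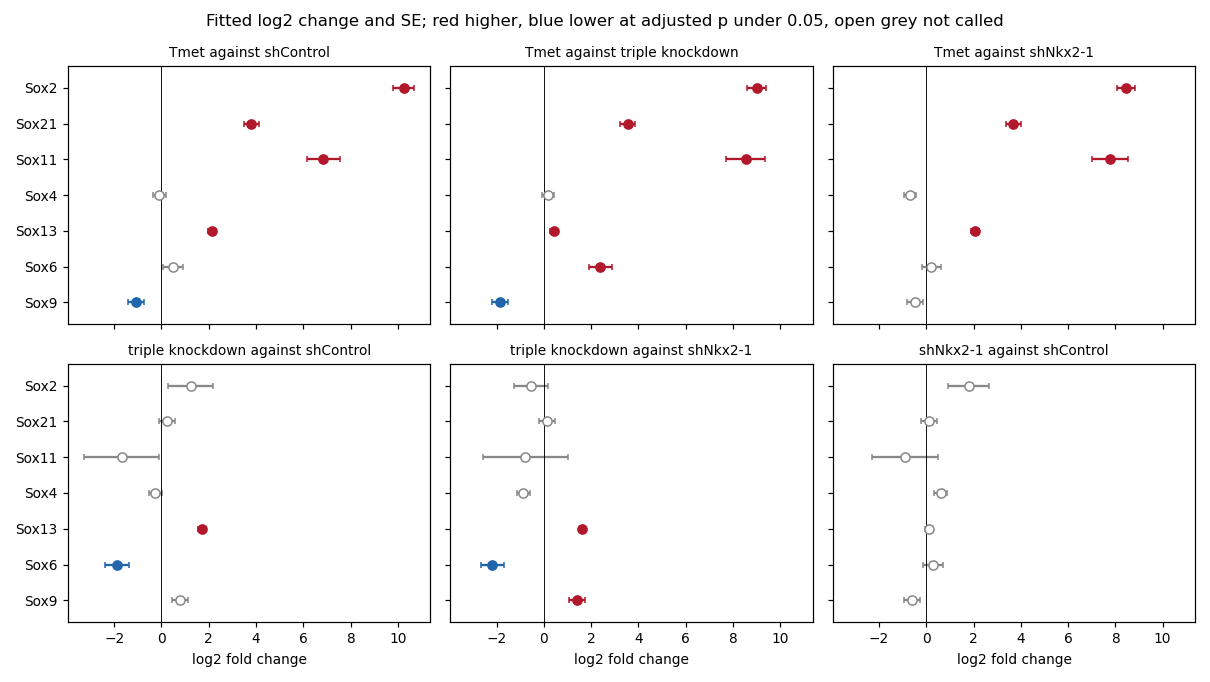
Log2 change (x axis, horizontal bars show SE) of the 7 tested Sox genes in 6 contrasts, red where called higher, blue where called lower, open grey where not called. Sox2, Sox11 and Sox21 are red in all 3 Tmet contrasts, and Sox6 and Sox13 take opposite signs in the triple knockdown.

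Sox9, a SoxE factor of distal lung tips, ducts and cartilage, had its highest average in the triple knockdown. It stood at 15.5 and 9.37 CPM in Tmet, 46.8 and 42.7 in the triple knockdown, 20.4 and 13.9 in shNkx2-1, and 33.7 and 18.7 in shControl. The triple knockdown libraries exceeded all others, and 1 shNkx2-1 library lay between the 2 shControl libraries. In the triple knockdown Sox9 rose by 1.39 ± 0.33 on the log2 scale against shNkx2-1 (edgeR adjusted p = 0.0232), while the change of 0.78 ± 0.33 against shControl was not called (adjusted p = 0.129). The rise lost its call without any 1 of the 4 libraries compared (adjusted p = 0.0587 and 0.177 without shNkx2-1 replicate 1 or 2, 0.116 and 0.0916 without triple knockdown replicate 1 or 2), and the uncalled change passed without Tmet replicate 1 or 2 (0.0356 and 0.0355) and with only the libraries compared (0.0233). In Tmet Sox9 fell by 1.07 ± 0.34 on the log2 scale against shControl (adjusted p = 0.0262), without a call when shControl replicate 1 (adjusted p = 0.200, change -0.61) or Tmet replicate 2 (0.0782) was left out or only the libraries compared were fitted (0.0684). The change of -0.46 in Tmet against shNkx2-1 was not called (adjusted p = 0.270), and those groups overlapped. Against the triple knockdown it fell by 1.85 ± 0.34 (adjusted p = 0.00307), a call that held in all 15 alternatives.

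The SoxF genes, regulators of endothelial identity and of endoderm, were hardly detected. Sox7 had 3 to 8 counts in each of the 8 libraries, Sox17 1 count in 1 shNkx2-1 library and Sox18 0 counts in all 8. A count of 0 allows up to 0.151 to 0.200 CPM per library, and no fold was computed. Among endothelial markers, Cldn5, Emcn and Robo4 had 0 counts in every library, Erg at most 1 and Cdh5 at most 5. Flt1, a VEGF receptor, was above the floor in every group and averaged 12.2 CPM in Tmet, 7.75 in the triple knockdown, 17.8 in shNkx2-1 and 6.0 in shControl. Notch4 averaged 5.11, 0.654, 0.143 and 0.277 CPM in the same order, near or below the floor in shNkx2-1 and shControl. Of the 5 tested genes of that list, 3 were called higher and 1 lower in Tmet against shControl (29.2% and 28.1% of all tested genes), 2 higher in the triple knockdown (12%) and 1 higher, Flt1, in shNkx2-1 (2.17%). Dll4, among those called higher in Tmet, passed the filter only through Tmet. The 17 listed genes summed to 21.9 and 19.5 CPM in Tmet, 18.8 and 17.5 in the triple knockdown, 26.3 and 22.1 in shNkx2-1, and 10.1 and 9.60 in shControl.

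Per kilobase of annotated exon, which adjusts roughly for gene length, Sox4 led in the 3 Tnonmet groups and Sox2 led in Tmet. The rank of Sox4 is uncertain, because 54.2% of its 45-base stretches were shared with other genes, nearly all of these with Gm26735. Sox2 averaged 56.1 CPM per kb in Tmet, where Sox4 averaged 31.4, Sox13 12.8, Sox21 7.40, Sox9 3.0, Sox11 1.71 and Sox6 0.134. In the triple knockdown Sox4 averaged 27.8 CPM per kb, Sox9 10.8 and Sox13 9.56, and in shNkx2-1 they averaged 50.7, 4.14 and 3.09. In shControl the same genes averaged 33.3, 6.34 and 2.89. No test was run between genes.

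**Figure D4:**
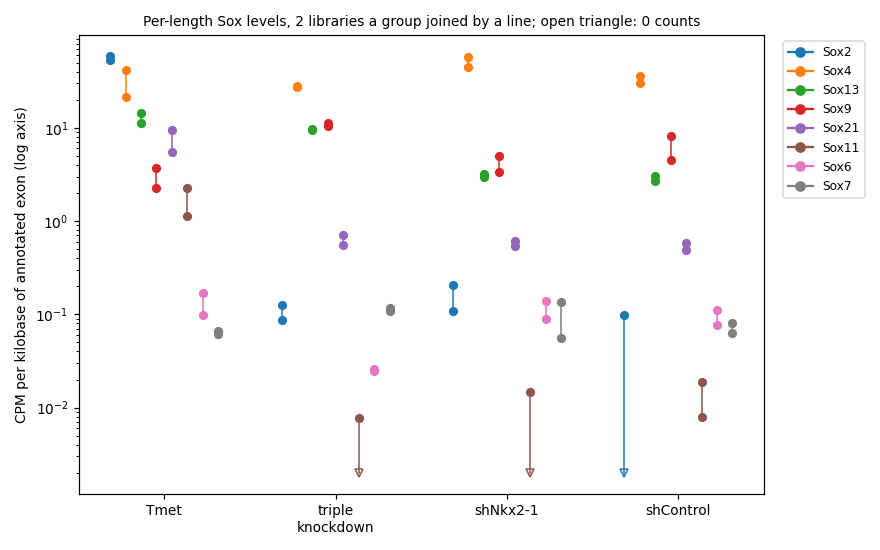
CPM per kilobase of annotated exon (log axis) of 8 Sox genes by group, with Tmet at left and shControl at right; a line joins the 2 libraries of a group and open triangles mark 0 counts. Sox2 moves to the top in Tmet, at 56.1 on average, and Sox4 is at the top elsewhere.

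The promoters of Sox2, Sox11 and Sox21, which had the largest rises of the 10 genes in Tmet, are shown: 250 bases before the start and 50 after it, from RefSeq on GRCm38.p6. That is another build than the mm9 named in the submitters' processing notes. They lie at chr3:34649745-34650044 on the + strand (Sox2), chr12:27342669-27342968 on the - strand (Sox11) and chr14:118236981-118237280 on the - strand (Sox21). Each is written 5′ to 3′ along its gene, with matches to the searched motifs in capitals.
Sox2: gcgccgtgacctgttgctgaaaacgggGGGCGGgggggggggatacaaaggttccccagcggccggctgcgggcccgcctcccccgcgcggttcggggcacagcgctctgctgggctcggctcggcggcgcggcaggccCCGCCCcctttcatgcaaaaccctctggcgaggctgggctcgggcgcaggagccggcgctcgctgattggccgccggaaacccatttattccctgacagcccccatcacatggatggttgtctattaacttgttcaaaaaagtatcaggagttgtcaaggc
Sox11: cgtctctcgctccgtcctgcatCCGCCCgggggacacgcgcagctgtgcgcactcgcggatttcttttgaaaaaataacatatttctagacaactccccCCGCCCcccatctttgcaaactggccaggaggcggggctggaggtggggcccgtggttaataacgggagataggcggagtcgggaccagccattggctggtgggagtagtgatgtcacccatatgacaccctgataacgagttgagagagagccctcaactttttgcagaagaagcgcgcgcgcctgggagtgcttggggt
Sox21: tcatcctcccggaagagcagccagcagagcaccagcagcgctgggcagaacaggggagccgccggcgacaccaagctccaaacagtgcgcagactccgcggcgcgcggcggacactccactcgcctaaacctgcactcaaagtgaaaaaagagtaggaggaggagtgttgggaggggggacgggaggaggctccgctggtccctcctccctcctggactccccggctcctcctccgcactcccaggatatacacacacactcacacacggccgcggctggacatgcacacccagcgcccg
The motifs, searched on both strands, were a Sox core (ACAATG, in 12.6% of 32851 promoters of this length), an NKX2-1 core (CAAGTG, 13.6%), a FOXA core (TGTTTAC, 3.65%), a CDX2 core (TTTATNG, 10.9%) and a GC box (GGGCGG, 35.7%). Sox2 and Sox11 each held 2 GC-box matches and none of the other motifs, and Sox21 held no match. Sox4 and Sox13 held none either. Of 6 listed Sox6 promoters, 1 held a CDX2 match, 1 an NKX2-1 match with 4 GC boxes, 2 held Sox matches and 2 held none. Sox12, a SoxC gene outside the 10, held 1 FOXA match and 4 GC boxes.

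Of the 7 tested Sox genes, 4 were called higher and 1 lower in Tmet against shControl, when 57.3% of all tested genes were called in that contrast, 29.2% higher and 28.1% lower. Their median log2 change was 2.14, against 0.02 over all tested genes. Against the triple knockdown 5 were higher and 1 lower (background 48.1%, with 24% higher and 24.1% lower), and against shNkx2-1 4 were higher and none lower (58.1%, with 29.3% higher and 28.8% lower). In the triple knockdown 1 was higher and 1 lower against shControl (24.4%, with 12% higher and 12.4% lower), and 2 were higher and 1 lower against shNkx2-1 (20.4%, with 9.27% higher and 11.1% lower). These contrasts share samples and are not independent. Sox2 and Sox11 passed the filter only through their Tmet libraries, so being tested at all went with high Tmet counts. The counts called in the Tmet contrasts, and the median of 2.14, therefore say little about the Sox genes as a set. In shNkx2-1 against shControl edgeR called 0 of the 7 (3.55%, with 2.17% higher and 1.38% lower), with 0 also at an unadjusted p under 0.05. DESeq2 called 0 as well, with 1 at an unadjusted p under 0.05. Sox4 alone was called without Tmet replicate 1 or 2. In the triple knockdown against shControl the count was 1 when any 1 of the 4 libraries compared was left out, and against shNkx2-1 it was 1 without shNkx2-1 replicate 2 or either triple knockdown library.

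Among the 10 other Sox family genes in the table, 1 passed the filter, and only through its Tmet libraries. Sox12, the third SoxC gene, had 63.5 and 39.3 CPM in Tmet, 0.301 and 0.128 in the triple knockdown, 0.182 and 0.338 in shNkx2-1, and 0.067 and 0.155 in shControl. Both Tmet libraries were far above the rest, which held 4 to 9 counts a group. Its log2 change in Tmet against shControl was 8.70 ± 0.47 (edgeR adjusted p = 3.83e-06), with a ratio of 437 and a counting interval of 171 to 1607. Sox5, the third SoxD gene, held 23 counts over both Tmet libraries and 0 to 3 in any other group.

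The genes whose log2 CPM tracked each Sox gene most closely over the 8 libraries were named by Pearson's r among tested genes that averaged at least 5 CPM over all libraries, as a description. Such an average can rest on 1 group, as for Tacc1, at 54.6 CPM in Tmet and 0.126 to 0.473 CPM on average in the other groups. They were Tacc1 (r = 0.997) and Tmem181b-ps (0.997) for Sox2, Dmpk (0.996) and Apbb1ip (0.995) for Sox21, Msh3 (0.993) and Sipa1l1 (0.992) for Sox11, and Spns2 (0.995) and Cxcr7 (0.993) for Sox13. Mpp7 (0.961) and Slc25a11 (0.960) were closest to Sox4, Krba1 (0.979) and Spin1 (0.977) to Sox6, and Uhrf1bp1l (0.962) and Lif (0.957) to Sox9. Each Sox gene was compared with 9691 or 9692 genes. In number, 352 genes had r over 0.95 with Sox2, 338 with Sox11 and 421 with Sox21, 134 with Sox13, 14 with Sox6, 3 with Sox4 and 2 with Sox9. Sox2 and Sox11 were near the floor in every Tnonmet library, so their r mainly restates the difference between Tmet and the other groups. Spns2 averaged 31.0 CPM in Tmet, 21.7 in the triple knockdown, 1.72 in shNkx2-1 and 1.2 in shControl, the order seen for Sox13. Between the Sox genes r was 0.985 for Sox2 with Sox21, 0.967 for Sox2 with Sox11 and -0.834 for Sox6 with Sox9, over libraries that share group and depth.

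Genes linked to SoxC factors in neural and mesenchymal precursors were chosen with earlier results of these data known, so their counts are a description. In Tmet, 7 of 8 tested were higher and none lower, with a median log2 change of 2.28, when 29.2% of all tested genes were higher. Stmn2, a neuronal tubulin regulator, averaged 287 CPM in Tmet and 0.306 CPM in shControl (9.78 ± 0.33, edgeR adjusted p = 4.25e-07), and Nes, the precursor filament nestin, averaged 104 and 4.28 CPM (4.60 ± 0.36, adjusted p = 2.68e-05). In the triple knockdown 3 of 8 were higher (12% of all tested genes), among them Hmga2, a chromatin protein, which averaged 680 CPM in the triple knockdown and 79.4 CPM in shControl (3.10 ± 0.18, adjusted p = 5.29e-05), and Tubb3, neuronal tubulin, at 5.43 and 0.998 CPM (2.44 ± 0.49, adjusted p = 0.00953). In shNkx2-1 1 of 8 was higher (2.17% of all tested genes), Hmga2, at 175 CPM in shNkx2-1 and 79.4 CPM in shControl (1.14 ± 0.17, adjusted p = 0.0176).

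TCF/LEF factors and beta-catenin partners, with which Sox proteins share targets, were mostly lower in Tmet: 7 of 11 tested were lower and 1 higher, with a median log2 change of -0.72 against 0.02 over all tested genes, of which 28.1% were lower and 29.2% higher. Tcf7 averaged 13.2 CPM in Tmet and 0.939 CPM in shControl (3.81 ± 0.37, edgeR adjusted p = 8.77e-05), and the corepressor Tle4 averaged 1.01 and 37.6 CPM (-5.17 ± 0.57, adjusted p = 1.69e-04). Tcf7 was also higher in the triple knockdown, at 4.44 CPM against 0.939 CPM in shControl (2.24 ± 0.38, adjusted p = 0.00447), where Ctnnb1, which encodes beta-catenin, averaged 972 and 1514 CPM (-0.64 ± 0.14, adjusted p = 0.0141). Of 4 tested Wnt target and feedback genes, 3 were higher and 1 lower in Tmet, and 2 higher in the triple knockdown, where 12% of all tested genes were higher. The lower one was Rnf43, a brake on Wnt receptors, at 0.309 CPM in Tmet and 34.0 CPM in shControl (-6.73 ± 0.32, adjusted p = 2.16e-06).

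Cartilage genes that depend on Sox9 were mostly not tested, as 4 of 12 in the table passed the filter. Acan, the cartilage proteoglycan aggrecan, averaged 127 CPM in Tmet, 370 in the triple knockdown, 85.8 in shNkx2-1 and 34.5 in shControl. Its log2 change against shControl was 1.88 ± 0.24 in Tmet (edgeR adjusted p = 4.00e-04), 3.42 ± 0.26 with the triple knockdown (adjusted p = 1.35e-04) and 1.31 ± 0.24 in shNkx2-1 (adjusted p = 0.0314). Hapln1, a proteoglycan link protein, was listed at 0 counts in Tmet and averaged 0.0301 CPM in the triple knockdown, against 1.00 CPM in shControl, and was called lower in both. Of 8 tested genes of the distal lung tip, 2 were higher and 4 lower in Tmet (29.2% and 28.1% of all tested genes), and 2 higher in the triple knockdown (12%). With 8 genes, the share higher in Tmet was near that over all genes. Etv4, an FGF-responsive factor, averaged 69.6 CPM in the triple knockdown and 46.4 CPM in shControl (0.58 ± 0.17, adjusted p = 0.0387). In Tmet, where Sox9 had its lowest average, Etv4 was higher still, at 100 CPM (1.10 ± 0.17 against shControl, edgeR adjusted p = 8.71e-04). Gata6, an endoderm factor held in both the lung-tip and the endoderm list, averaged 0.212 CPM in Tmet and 57.4 CPM in shControl (-8.05 ± 0.21, adjusted p = 2.01e-07).

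Duct and crypt progenitor genes, a setting in which Sox9 is expressed, were lower in Tmet for 6 of 8 tested and higher for 1, with a median log2 change of -2.85, when 28.1% of all tested genes were lower and 29.2% higher. In the triple knockdown 2 were higher and 2 lower (12% and 12.4% of all tested genes). Krt7, a keratin of simple and ductal epithelium, went in opposite directions: it averaged 1.13 CPM in Tmet, 1138 CPM in the triple knockdown and 116 CPM in shControl, with log2 changes of -6.68 ± 0.20 (edgeR adjusted p = 3.33e-07) and 3.29 ± 0.15 (adjusted p = 1.59e-05). Of 7 tested definitive endoderm genes, 5 were lower and 2 higher in Tmet, against the same shares over all genes, with a median log2 change of -2.21, or -1.32 with Foxa3, whose Tmet and shControl levels did not exceed the floor, set to 0. Airway, oesophagus and basal cell genes, a setting of Sox2, were represented by 2 of 10: Krt14 averaged 2.43 CPM in Tmet and 0.0667 CPM in shControl (5.21 ± 0.77, adjusted p = 7.71e-04), and Trp63 averaged 0.0252 and 0.628 CPM (-4.26 ± 1.06, adjusted p = 0.00961). In the triple knockdown and shNkx2-1, Krt14 averaged 4.84 and 0.534 CPM and Trp63 0.251 and 3.16 CPM. Neither gene was thus highest in Tmet, and neither was called between Tmet and the triple knockdown.

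**Figure D5:**
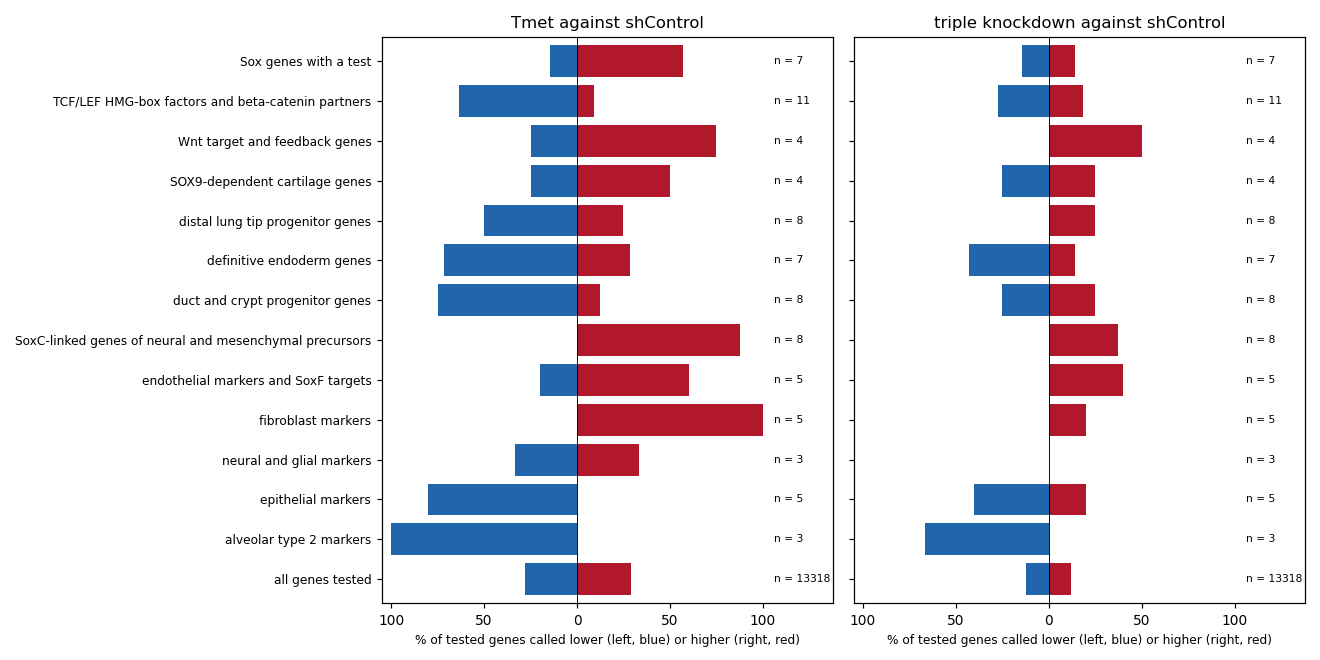
Percentage of tested genes called lower (left of 0) or higher (right of 0) in Tmet and in the triple knockdown, each against shControl. Rows are the Sox genes, the gene lists and all genes tested, with the number tested at the right. The lists of other Sox family genes, leukocyte markers and airway, oesophagus and basal cell genes are not drawn. The SoxC-linked list, chosen like the others with earlier results known, reaches 7 of 8 higher in Tmet. Over all genes, 57.3% were called in Tmet and 24.4% in the triple knockdown.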

How the data were processed

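The authors deposited estimated counts (RSEM expected counts) per gene for 8 libraries of polyadenylated RNA, read as 45-nt single ends. RSEM 1.2.12, Bowtie 1.0.1 and the build mm9 are named, without roles, per the submitters' processing notes. No source used here gives the annotation or the strand setting. Counts were rounded and analysed with edgeR 4.0.16 in R 4.3.3: filterByExpr (minimum count 10, total 15) left 13318 of 23224 genes, and all 8 libraries entered 1 quasi-likelihood fit with TMM factors (4 residual degrees of freedom). P-values are two-sided and were adjusted over all tested genes (Benjamini-Hochberg). Alternatives were DESeq2 1.42.0, its size factors, other count filters, unrounded counts, fits of only the libraries compared, a replicate block and leaving out each library. All 10 Sox genes, the 3 targeted genes, up to 2 genes of a list with the smallest p in a contrast and the 2 genes most like each Sox gene were named. The Sox genes and the lists were chosen with earlier results of these data known. Exon lengths, overlaps and HMG-box DNA came from GENCODE vM21, promoters from RefSeq.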

Additional observations from a re-analysis of the deposited data

How the results depend on the processing

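Of 42 results for single Sox genes, 20 were called, and 15 of these kept their call in every alternative. The counts of genes called moved by more than 1.5 times as follows: shNkx2-1 against shControl, 473, was 877 with DESeq2, 1779 with only the libraries compared and 294 with the replicate block; the triple knockdown with only the libraries compared gave 5607 against shControl (3243 in the reported fit) and 4518 against shNkx2-1 (2711). The counts of Sox genes called were 1 instead of 0 in shNkx2-1 against shControl with only the libraries compared, and 1 instead of 2 in the triple knockdown against shControl with DESeq2 and with the stricter filter (50 counts in 2 libraries), under which Sox6 was not tested. The other causes were not tested.

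With each library left out, genes called were 0 to 1998 (shNkx2-1 against shControl; the 0 came without shControl replicate 1, with 1317 at an unadjusted p under 0.05), 1248 to 5459 (triple knockdown against shControl), 5534 to 8882 (Tmet against shControl), 1024 to 4994 (triple knockdown against shNkx2-1), 5626 to 8973 (Tmet against shNkx2-1) and 3962 to 7901 (Tmet against the triple knockdown). Sox genes called were 0 to 1, 1 to 3, 4 to 6, 1 to 4, 4 to 5 and 5 to 7 in the same order. Signs changed only for uncalled values: in shNkx2-1 against shControl Sox11 ranged from -4.11 to 0.064, Sox21 from -0.013 to 0.23 and Sox6 from -0.071 to 0.59; in the triple knockdown against shNkx2-1 Sox11 ranged from -3.21 to 2.42 and Sox21 from -0.053 to 0.30; Sox6 in Tmet against shNkx2-1 ranged from -0.23 to 0.55; and Sox4 ranged from -0.63 to 0.30 in Tmet against shControl and from -0.37 to 0.57 against the triple knockdown. A fit that leaves 1 library in a group assumes that it varies like the other groups.

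Same-numbered libraries deviated together weakly among the Tnonmet groups (correlations of 0.149 to 0.227) and not between Tmet and those groups (-0.161 to -0.0418). No label says that a number marks a shared batch, and with 2 numbers a group they were not taken to pair the samples. The replicate block moved Sox6 (adjusted p = 0.0508) and Sox9 (0.0264) across the threshold in the triple knockdown against shControl, and Sox13 in Tmet against the triple knockdown (0.0677). Between Tnonmet groups, Sox2 and Sox11 failed the filter on low counts when only the libraries compared were fitted. The depth limits Sox2, Sox11 and the SoxF genes in those contrasts.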
